A study of Mus musculus with 64 samples.

Results

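Ribosome biogenesis factors are the proteins that transcribe, modify, cut and fold ribosomal RNA and assemble it with ribosomal proteins. The 38 genes described here were taken by symbol from a written list, and all 38 were found among the 39017 genes of the count table. They were followed in 8 mouse pancreatic tumor lines, with 4 libraries per line grown in mono-culture and 4 per line from tumor cells that were sorted by green fluorescence (GFP) after 48 h of coculture with fibroblasts. Clones E, H and V (group 1) and K, M, N and T (group 2) were derived by subcloning from 1 polyclonal line of 1 tumor of a KPC mouse, which carries a mutant Trp53 allele and expresses Cre under the Pdx1 promoter. The paper assigned the clones to these groups by their metabolites. The last line, KPC1, is counted among the sub-clones by the labels and has no group. The strain is given as mixed C57BL/6, and the source of the fibroblasts is not given in the sources used here. Nothing states whether mono-cultures were sorted too, so sorting and coculture cannot be told apart.

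A ribosome begins in the nucleolus, where RNA polymerase I (Pol I) copies ribosomal DNA into a long precursor. Small nucleolar ribonucleoproteins (snoRNPs) of the box C/D and box H/ACA classes modify this precursor, a large particle called the small subunit processome cuts out the small subunit, and a separate set of factors matures the large subunit. Genes for these factors are classic targets of the transcription factor Myc, and their levels usually follow the growth rate of a cell.

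Myc binds the letters CACGTG, a palindrome that reads alike on both strands. RefSeq promoter windows, from 250 bases before to 50 bases after a start on GRCm38.p6, were given for 33 of the 38 members. The letters were in 7 of them (21.2%), against 11.6% of the 9730 genes with a promoter window among those tested in coculture and 8.09% of all 27025 symbols in the table. The windows below are shown because they hold these letters, which stand in capitals, and because their genes lie near opposite ends of the coculture response described further on. Positions are counted from the start, with bases before it negative. Each is read from 5′ to 3′ on the strand of its gene.
Nop2, chr6:125131783-125131882, plus strand, letters from position -60: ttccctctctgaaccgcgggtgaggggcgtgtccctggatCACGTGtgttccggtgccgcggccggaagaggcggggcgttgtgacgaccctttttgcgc
Imp4, chr1:34439668-34439767, plus strand, letters from position -121: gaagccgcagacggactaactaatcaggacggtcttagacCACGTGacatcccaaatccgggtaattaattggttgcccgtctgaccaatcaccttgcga
Nop2 is an rRNA methyltransferase of large subunit assembly and had one of the largest rises in coculture. Imp4, which has the same letters upstream of its start, did not pass the test. The other members with the letters were Pes1, Tsr1, Wdr43, Grwd1 and Utp20. The 7 members with them had a median log2 fold change in coculture of 0.48 (range 0.11 to 0.81), and the 26 without them had 0.57 (range −0.10 to 0.94). A match of letters describes the window and says nothing of binding.

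Library totals lay between 11178721 and 21333683 counts, and the lowest count of any member in any library was 162, for Rrp12. Levels are given as CPM, counts relative to the library total after TMM normalization, which scales each library to the bulk of its genes. Sample numbers in the labels form 2 series, called sheet A (43 libraries) and sheet B (21 libraries) from here on, and no source says what they stand for. Of 8 ductal tumor markers, Krt8, Krt18, Krt19 and Sox9 were at 85.3 CPM or more in every line in mono-culture, while Epcam and Cldn4 were at or near 0, Cdh1 ran from 0.998 to 303 CPM and Muc1 from 1.38 to 5.06 CPM. In coculture Krt19 was lower in 8 of 8 lines (log2 fold change −0.70, adjusted p = 0.00240 from edgeR), Krt8 was called lower (−0.51, adjusted p = 0.0809) and Sox9 higher (0.27, adjusted p = 0.0260), and their part in the members' changes was not tested.

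Npm1, a histone and ribosomal protein chaperone of the nucleolus, stood far above the other members in level per length. In RPKM, the deposited value per kilobase of gene, scaled to library size, the median of the 8 mono-culture means was 245 for Npm1 and 92.1 for Ncl, the nucleolin gene. They were followed by Pa2g4 (67.3), Imp3 (54) and Nhp2 (45.7). The lowest RPKM were those of Wdr74 (0.747), Wdr12 (3.19), Rrp12 (3.61), Rrp1b (4.94) and Rrp9 (5.92). The gene lengths behind the RPKM are those of the authors and were long for some genes. For Wdr74 the 2 tables together imply 49413 bases, against 1204 in its principal transcript in GENCODE M21, and per kilobase of that transcript Wdr74 was at 28.3 CPM. On the same scale Npm1 was at 1260 CPM, Ncl at 126 CPM and Rrp12 at 4.0 CPM. Fbl (91.5 CPM), Nop56 (83.6 CPM) and Nop58 (78.8 CPM) then stood above Nhp2 (58 CPM) and Imp3 (57.2 CPM). Wdr12 (13.4 CPM) stood above Rrp9 (11.8 CPM). The position of Wdr74 and of these other members thus depended on the length used.

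In mono-culture the members differed between lines, and they did so largely together. All 38 were called between the 8 lines at an adjusted p under 0.1 (edgeR quasi-likelihood F-test over 64 libraries), but 95.1% of all 14134 genes tested were called as well, so the count says little about the members. Their line means spanned a median of 1.17 on the log2 scale, from 0.55 for Imp4 to 1.75 for Bop1. Clone M had the lowest mean for 21 members and clone K for 12, whereas KPC1 had the highest for 21 and clone N for 13.

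The widest spans were those of Bop1, Nop56 and Tsr1. Bop1, a subunit of the PeBoW complex that matures the large subunit, had line means from 35.2 CPM in clone M to 118 CPM in clone V, with a median of 63.1 CPM (adjusted p = 4.47e-17). The 4 libraries of clone M were at 33.1, 36.6, 40.4 and 30.8 CPM and those of clone V at 125, 123, 114 and 108 CPM, with no overlap. Nop56, a core protein of box C/D snoRNPs, ran from 87.1 CPM in clone M to 291 CPM in clone N, 3.34-fold (adjusted p = 4.94e-14). Tsr1, which binds late small subunit precursors, ran from 29.4 CPM in clone K to 96.0 CPM in KPC1 (adjusted p = 3.05e-17).

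The narrowest spans belonged to Imp4, Pes1 and Las1l. Imp4, a processome protein that helps pair U3 snoRNA with the precursor, ran from 41.1 CPM in clone E to 60.2 CPM in clone N (adjusted p = 3.14e-06). Pes1, also of PeBoW, ran from 127 CPM in clone K to 203 CPM in KPC1 (adjusted p = 5.95e-13). Las1l, the endonuclease gene that acts on the spacer next to the large subunit RNA, ran the other way from most members. It was lowest in KPC1 (74.0 CPM) and highest in clone H (122 CPM, adjusted p = 1.64e-07).

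To follow the members as a set, a score was taken for each library as the median over the 38 genes of log2 CPM minus the mean of the 64 libraries. In mono-culture it was lowest in clone M, at −0.77 ± 0.122 (SD, n = 4 libraries), and in clone K, at −0.61 ± 0.176. Clones E (−0.33 ± 0.0981), T (−0.32 ± 0.226), V (−0.27 ± 0.0997) and H (−0.19 ± 0.0301) had overlapping libraries. Clone N (0.15 ± 0.186) and KPC1 (0.27 ± 0.147) stood highest. Clone K in mono-culture was on sheet B throughout. On the same sheet, mono-culture libraries of KPC1 were at 0.32, 0.37 and 0.05 and those of clone T at −0.19 and −0.18. The mono-culture library of clone H there was at −0.21 and that of clone M at −0.79. In coculture the libraries of K were at −0.50 and −0.29 on sheet A and at −0.19 and −0.28 on sheet B. The part of the sheet in these levels was not tested. The order of the members' levels over lines was shared: over the 8 mono-culture means, the 703 pairs of members had a median Pearson r of 0.698, and 91.7% of the pairs were positive. The points share libraries and normalization, and the same values over all genes are not given. Las1l had the lowest mean r with the others (−0.361) and Ppan, a large subunit assembly factor, the highest (0.753).

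**Figure D1:**
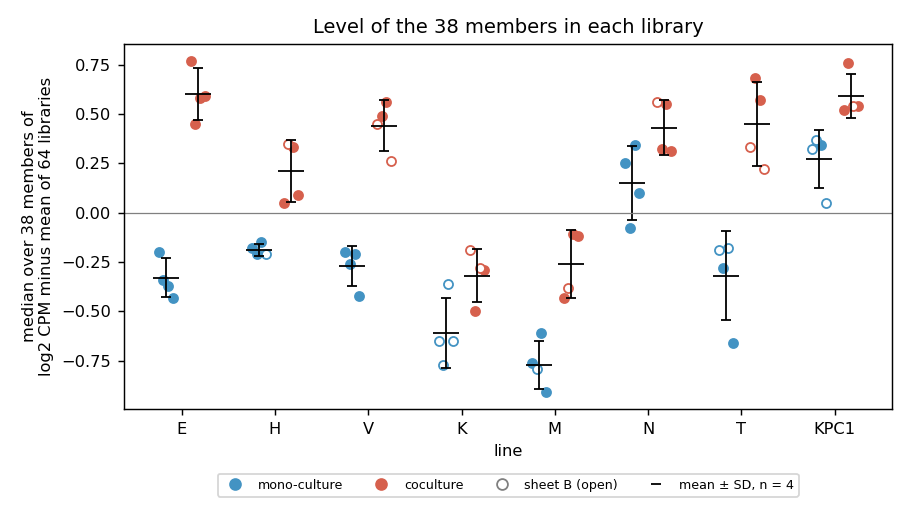
Score of the 38 members (y axis: median over members of log2 CPM minus the mean of 64 libraries) for each library, by line; blue is mono-culture, red is coculture, open points are libraries of sheet B, and black bars are the mean ± SD of 4 libraries. Means were higher in coculture in all 8 lines, from −0.77 to −0.26 in clone M and from 0.27 to 0.59 in KPC1.

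**Figure D2:**
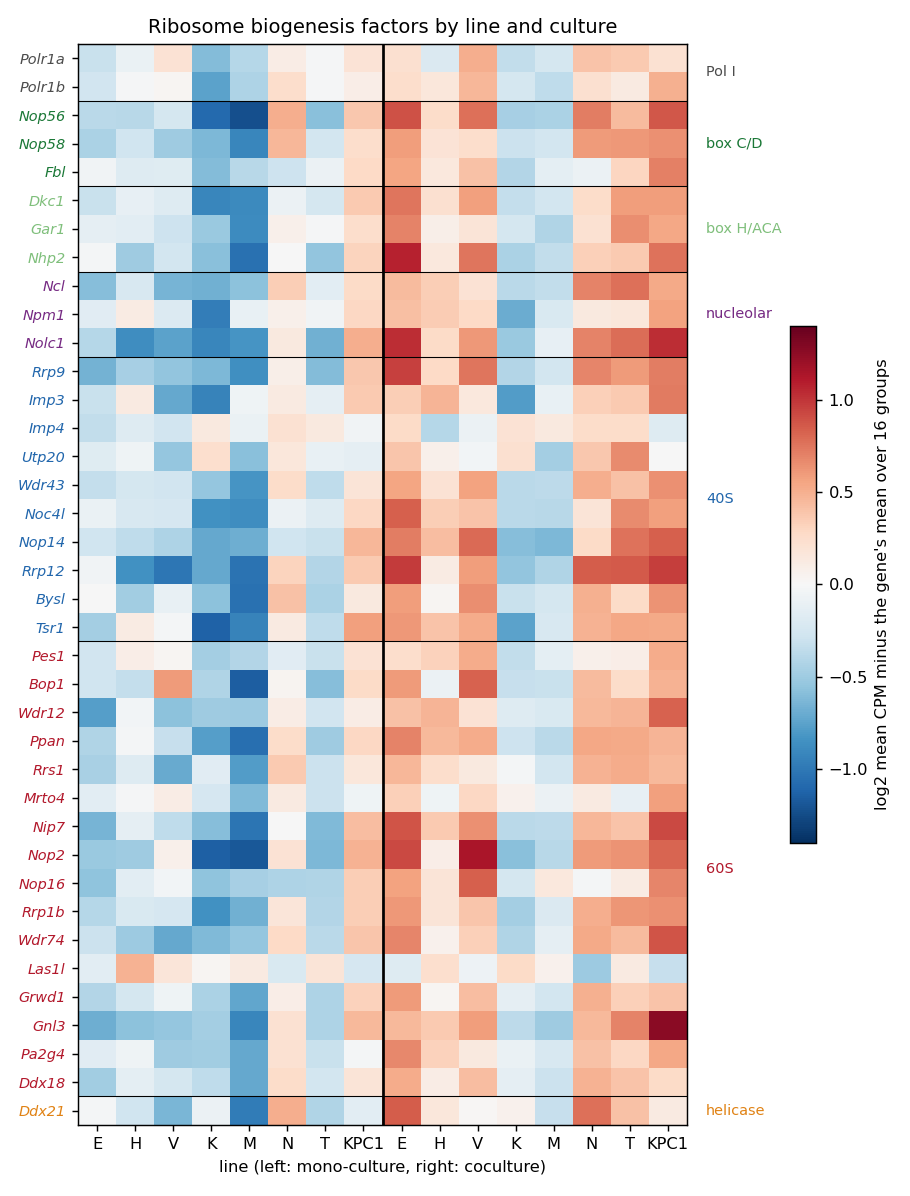
Mean CPM of each member in each line and culture (log2, minus the gene's mean over the 16 groups), mono-culture on the left and coculture on the right, with members ordered and colored by role. Clones K and M were low in both cultures for most members, and Las1l was called lower in clones H, V and N.

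Nearly the whole list was higher in the coculture libraries. With the 4 libraries of a line and culture summed and the line as covariate (16 sums), 36 of 38 members were called higher in coculture and none lower, at an adjusted p under 0.1. Over all 14478 genes tested, 27.2% were called higher and 27.4% lower. The members' median log2 fold change was 0.53 (range −0.10 to 0.94), against 0 over all genes. The mean was higher in coculture in all 8 lines for 29 members, as it was for 14.3% of all genes tested. It was higher in 7 lines for 6 members, in 6 lines for Imp4 and Mrto4 and in 1 line for Las1l. In bulk samples, a change in the mix of cells and a change per cell cannot be told apart.

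The largest rise was that of Nolc1, a nucleolar protein that escorts snoRNPs. Its line means ran from 89.9 to 242 CPM in mono-culture (median 104) and from 118 to 348 CPM in coculture (median 267). The log2 fold change was 0.94 ± 0.14 (SE, adjusted p = 0.00150 from edgeR, 16 sums), and Nolc1 was called higher in each of the 8 lines tested alone. In clone E its 4 libraries were at 143, 126, 130 and 118 CPM in mono-culture and at 358, 293, 405 and 335 CPM in coculture. The cultures did not overlap there, nor in any other line except clone K, where mono-culture libraries reached 111 CPM and coculture libraries began at 96.2 CPM.

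Rrp12 and Rrp9 followed. Rrp12, which accompanies precursors of both subunits out of the nucleus, went from a median of 17.4 CPM (range 12.5 to 33) to 42.2 CPM (17.4 to 50.4), a log2 fold change of 0.84 ± 0.14 (adjusted p = 0.00247). Rrp9, a U3 snoRNP protein, went from 18.6 CPM (15.3 to 36.2) to 43.3 CPM (20.9 to 54), a change of 0.83 ± 0.15 (adjusted p = 0.00313). In both, clone K was the line with the lowest coculture mean and the smallest change, 0.17 for Rrp12 (adjusted p = 0.663) and 0.22 for Rrp9 (adjusted p = 0.431).

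Nop2, Nop56 and Gnl3 complete the 6 largest. Nop2 stood at a median of 88.8 CPM (55.8 to 177) in mono-culture and 194 CPM (84.6 to 279) in coculture, 0.81 ± 0.13 on the log2 scale (adjusted p = 0.00186), and it too was called higher in each of the 8 lines. Nop56 went from 157 CPM (87.1 to 291) to 308 CPM (148 to 379), 0.75 ± 0.11 (adjusted p = 0.00144). Gnl3 encodes nucleostemin, a nucleolar GTPase of large subunit assembly. It went from 76.1 CPM (57.7 to 148) to 148 CPM (76.8 to 261), 0.73 ± 0.13 (adjusted p = 0.00291). The line ranges of the 2 cultures overlapped for all of these genes.

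Las1l and Imp4 were the members that did not pass. Las1l had a median line mean of 92 CPM (74.0 to 122) in mono-culture and 86.8 CPM (61.3 to 105) in coculture, a log2 fold change of −0.10 ± 0.06 (adjusted p = 0.223). Tested by line, it was called lower in clones H (−0.24, adjusted p = 0.0808), V (−0.24, adjusted p = 0.0596) and N (−0.30, adjusted p = 0.0417). Imp4 had 49.5 CPM (41.1 to 60.2) and 58.6 CPM (39.4 to 62.6), a change of 0.11 ± 0.08 (adjusted p = 0.315). It rose in clone E, from 42.7, 41.7, 41.7 and 38.4 CPM to 69.2, 56.5, 60.7 and 64.2 CPM (log2 fold change 0.61, adjusted p = 2.23e-06), and in clone M (0.23, adjusted p = 0.0771). In clone H it was called lower (−0.22, adjusted p = 0.0845).

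The smallest of the rises that passed were in Pol I and in Npm1 and Mrto4. Polr1a encodes the largest Pol I subunit and went from 170 CPM (116 to 204) to 206 CPM (140 to 253), 0.24 ± 0.07 on the log2 scale (adjusted p = 0.0174). Polr1b, the next largest subunit, went from 54.9 CPM (33 to 65.9) to 63.4 CPM (43.5 to 78.3), 0.27 ± 0.07 (adjusted p = 0.0126). Both were called in 4 lines. Npm1 went from 2060 CPM (1110 to 2660) to 2520 CPM (1340 to 3200), 0.25 ± 0.07 (adjusted p = 0.0237). Mrto4, an assembly factor related to the ribosomal stalk protein, went from 44.5 CPM (31 to 52.1) to 50.7 CPM (44.1 to 71.0), 0.28 ± 0.08 (adjusted p = 0.0183).

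By role, differences between classes were not tested. All 3 members of the box C/D group passed, with a median log2 fold change of 0.57. They are Nop56, Nop58 (0.57 ± 0.10) and Fbl (0.37 ± 0.06), the last being fibrillarin, the ribose methyltransferase of the particle. The box H/ACA group passed as well, with a median of 0.59: Dkc1, the pseudouridine synthase, at 0.59 ± 0.09, Nhp2 at 0.66 ± 0.11 and Gar1 at 0.42 ± 0.08. Among the nucleolar proteins Ncl, at 0.57 ± 0.10, went from 1040 CPM (850 to 1720) to 1780 CPM (1040 to 2310).

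Of 10 small subunit factors 9 passed, with a median of 0.53. Beside those already given, Nop14 (0.65 ± 0.14), Noc4l (0.57 ± 0.08), Tsr1 (0.53 ± 0.11), Wdr43 (0.53 ± 0.09) and Bysl (0.52 ± 0.09) rose by similar amounts, and the processome proteins Imp3 (0.38 ± 0.10) and Utp20 (0.31 ± 0.09) by less. Of 16 large subunit factors 15 passed, with a median of 0.54. The PeBoW complex rose in all its subunits, Wdr12 by 0.60 ± 0.10, Bop1 by 0.47 ± 0.11 and Pes1 by 0.32 ± 0.06. Nip7 (0.73 ± 0.13), Ppan (0.64 ± 0.11), Wdr74 (0.59 ± 0.10), Rrp1b (0.57 ± 0.09) and Nop16 (0.56 ± 0.10) lay above the median of the group. Below it were Pa2g4 (0.51 ± 0.07), Rrs1 (0.51 ± 0.10), Grwd1 (0.48 ± 0.10) and the helicase Ddx18 (0.44 ± 0.10). Ddx21, an RNA helicase that links Pol I transcription to precursor processing, rose by 0.52 ± 0.09 and was the only member in its class.

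**Figure D3:**
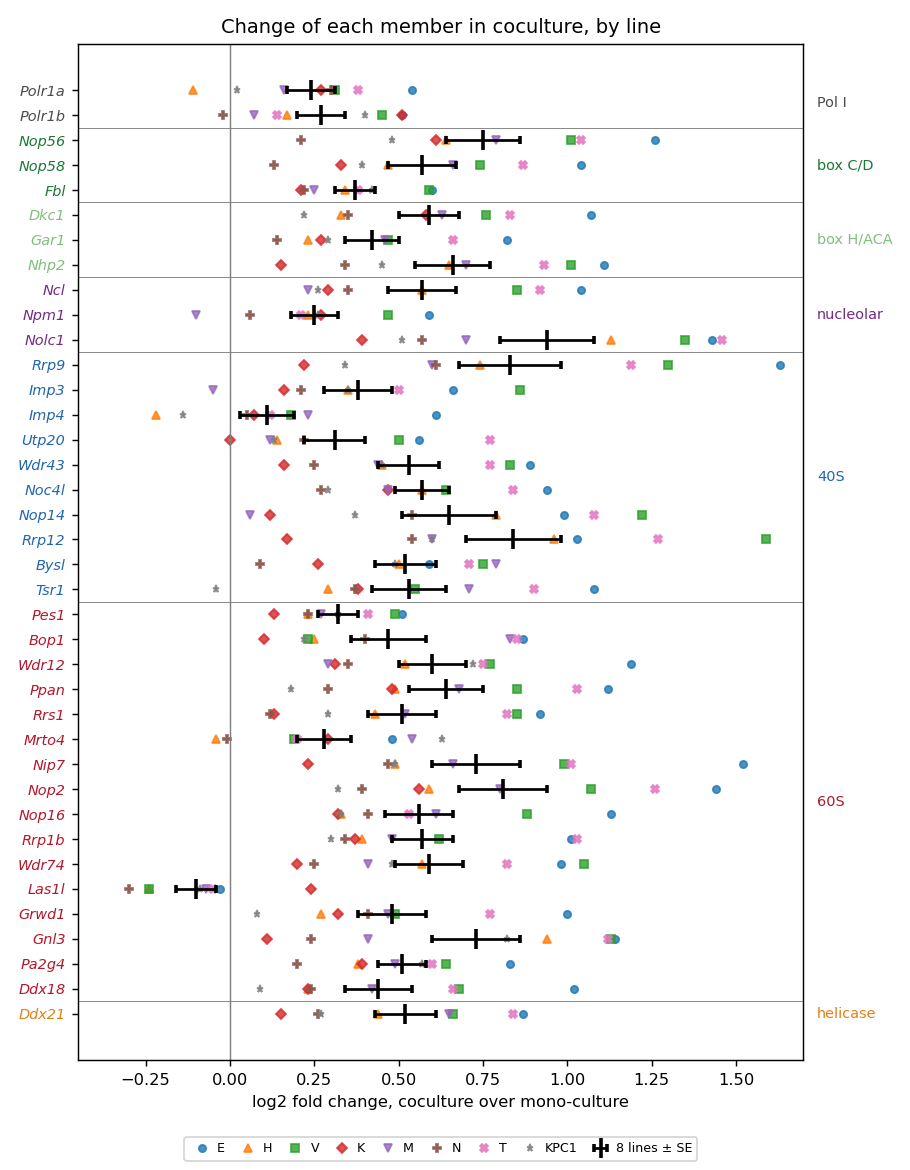
Log2 fold change of each member, coculture over mono-culture (x axis), with 1 colored symbol per line from the fit over 64 libraries and a black bar for the estimate over 8 lines ± SE. Clone E lies at the right for most members, and Las1l is the only member whose overall estimate is below 0.

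Other genes of the pathway moved alike. A list of 131 further biogenesis factors was written by role, of which 129 were in the table and tested. In coculture 109 were called higher and 5 lower, with a median log2 fold change of 0.39. The largest rises were in Mphosph10, the processome partner of Imp3 and Imp4 (1.04 ± 0.18, adjusted p = 0.00252), in Dimt1, a small subunit rRNA methyltransferase (0.95 ± 0.13, adjusted p = 0.00116), and in Dis3, a nuclease of the RNA exosome (0.89 ± 0.14, adjusted p = 0.00168). Among genes that passed, the largest falls were in Ubtf, the Pol I transcription factor that binds ribosomal DNA (−0.49 ± 0.11, adjusted p = 0.00668), Ddx55, a large subunit helicase (−0.27 ± 0.07, adjusted p = 0.0114), and Taf1c, a subunit of the Pol I selectivity factor (−0.25 ± 0.10, adjusted p = 0.0643). Ubtf fell in 8 of 8 lines, from 150 ± 28.9 to 106 ± 20.7 CPM (SD, n = 8 lines). Of the 12 further Pol I genes 6 were called higher and 2 lower, with a median of 0.15. The ribosomal proteins changed less: of 86 tested, 52 were called higher and 1 lower, with a median of 0.18. By line their median was 0.42 in clone E, 0.29 in KPC1, 0.28 in V and 0.21 in K. It was near 0 in the others, at 0.09 in H, 0.07 in N, 0.03 in M and 0.03 in T.

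**Figure D4:**
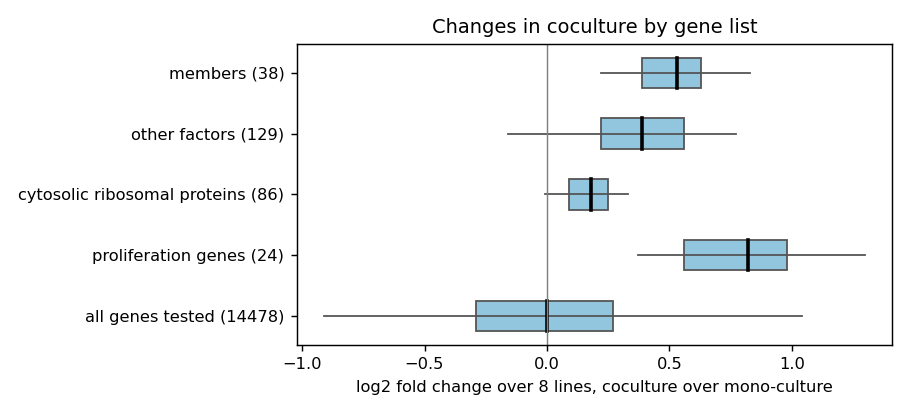
Log2 fold changes over 8 lines (x axis) for the 38 members, 129 other biogenesis factors, 86 ribosomal protein genes, 24 proliferation genes and all 14478 genes tested; boxes span the middle 50% of genes, thick lines are medians and thin lines run from the 5th to the 95th percentile. The medians were 0.53, 0.39, 0.18, 0.82 and 0.

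The size of the rise differed between lines. Clone E had 37 members called higher (background 32.1% of 14134 genes), with a median log2 fold change of 0.99. Clone T had 34 (background 31.5%; median 0.82). In clone V 34 were higher (background 30%) and Las1l was lower (background 31.5%), with a median of 0.75. Clone H had 30 higher (background 21.4%) and 2 lower (background 22.6%; median 0.41). In clone M 29 were higher (background 21.6%; median 0.47), and in KPC1 25 (background 20.1%; median 0.33). Clone N had 20 higher (background 20%) and Las1l lower (background 17.4%; median 0.26). Clone K had the fewest, 14 higher (background 12.5%; median 0.27). In every line a larger share of the members than of all genes was called higher. The 6 members called higher in each of the 8 lines were Nolc1, Noc4l, Wdr12, Nop2, Nop16 and Rrp1b (background 2.02%).

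The change was largest in clone E for 28 members, and smallest in clone K for 14, in clone N for 9 and in KPC1 for 7. The same shares over all genes are not given. Of all genes tested, the share called higher was also largest in clone E (32.1%) and smallest in clone K (12.5%). These counts are therefore not read as a trait of the members alone. In an F-test of the line by culture interaction, 35 of 38 members were called, against 71.3% of all genes. Those not called were Fbl, Bysl and Ddx21 (adjusted p = 0.195, 0.142 and 0.106). Nop14 had the smallest p (adjusted p = 1.02e-09). It rose from 97.8, 96.0, 101 and 92.8 CPM to 213, 223, 254 and 214 CPM in clone V, a log2 fold change of 1.22. In clone M it was at 82.2, 79.3, 84.2 and 80.0 CPM and then at 83.4, 77.5, 88.0 and 89.8 CPM, 0.06 (adjusted p = 0.731), and the cultures overlapped.

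Next were Ddx18, Nolc1 and Rrp9. Ddx18 changed by 1.02 in clone E and 0.09 in KPC1 (interaction, adjusted p = 2.04e-06), where the mono-culture libraries were at 85.6, 92.5, 91.0 and 74.2 CPM and the coculture libraries at 84.7, 81.8, 95.4 and 103 CPM. Nolc1 changed by 1.46 in clone T and 0.39 in clone K (adjusted p = 3.26e-06). Rrp9 changed by 1.63 in clone E, from 19.6, 17.4, 17.8 and 15 CPM to 61.7, 46.3, 50.2 and 57.7 CPM, and by 0.22 in clone K (adjusted p = 5.07e-06).

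Within sheets, the medians of clone T were 1.12 on sheet A (36 members called, 2 libraries of each culture) and 0.55 on sheet B (24 called, 2 of each). Clone K could be tested within sheet B alone, with a median of 0.35 and 10 members called higher. In KPC1 no member was called within sheet B, where it has 3 mono-culture and 1 coculture library, although the median was 0.32. One coculture library of KPC1, replicate 2, had the lowest total of the series. It was high for Nop56 (558 CPM against 321, 291 and 323) and Gnl3 (372 CPM against 216, 209 and 244), and without replicate 2 the count for KPC1 was 15, as it was without replicate 4. The counts of clone K were 4 without replicate 1 and 8 without replicate 4. Those of clone N, higher and lower together, were 11 without replicate 1, 13 without replicate 2 and 11 without replicate 3. All these settings use fewer libraries, which can change the calls of any gene, so the counts are not read as a result about the members.

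The score rose by 0.93 in clone E, 0.78 in T, 0.71 in V, 0.51 in M, 0.39 in H, 0.32 in KPC1, 0.29 in K and 0.28 in N. The order of the lines in coculture, from K (−0.32 ± 0.134) and M (−0.26 ± 0.171) to KPC1 (0.59 ± 0.112) and E (0.60 ± 0.130), put E, the line with the third lowest mono-culture mean, at the top. Over the 8 lines the changes of the members went together, with a median r of 0.735 over 703 pairs, 95.7% of them positive. Values over all genes are not given here either. The mean r of Las1l with the others was −0.00384.

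Groups 1 and 2, which the paper separates by metabolism, were compared next. In mono-culture (3 clones against 4, sums of libraries) no member was called by edgeR (background 0% of 14829 genes), DESeq2 (background 0.789%, 117 genes) or limma. Without clone E edgeR called 217 genes, again with no member among them. At an unadjusted p under 0.05 there was 1 member by edgeR, 1 by DESeq2 and 0 by limma. Shares of all genes are not given for this threshold or for limma. These counts are thus not read as a result about the members. The members' differences had a median of 0.12 toward group 1, from −0.35 to 0.53, and 24 of 38 were positive. That median depended on single clones, at 0.00 without K, 0.01 without M, 0.06 without H and 0.26 without N. Imp4 had the smallest p. It was at 41.1, 46 and 43.3 CPM in E, H and V and at 57.3, 48.7, 60.2 and 57.3 CPM in K, M, N and T, with no overlap (log2 difference −0.35 ± 0.14, unadjusted p = 0.0396, adjusted p = 0.888 by edgeR). Pes1 was at 147, 188 and 180 CPM against 127, 133, 158 and 142 CPM (0.30 ± 0.15, adjusted p = 0.888). Bop1 was at 64.3, 61.9 and 118 CPM against 58.4, 35.2, 80.2 and 51.8 CPM (0.53 ± 0.34, adjusted p = 0.888). For Pes1 and Bop1 the clones of the groups overlapped.

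No difference between the groups in the response to coculture passed the test in any member. The group by culture interaction called 0 of 38 members by edgeR (background 0.00637%, 1 of 15700 genes) and 0 by DESeq2 (background 1.19%, 187 genes). At an unadjusted p under 0.05 there were 2 members by edgeR and 3 by DESeq2. The share of all genes at that threshold is not given, so these 2 counts are not read as a result either. The members' median interaction was 0.24 toward a larger rise in group 1, from −0.14 to 0.60. It was 0.13 without clone E and 0.37 without clone H. Gnl3 had the smallest p: its log2 fold changes were 1.14, 0.94 and 1.13 in E, H and V and 0.11, 0.41, 0.24 and 1.12 in K, M, N and T (interaction 0.60 ± 0.24, adjusted p = 0.656). Clone T lay with group 1 here. Imp3 changed by 0.66, 0.35 and 0.86 against 0.16, −0.05, 0.21 and 0.50 (0.42 ± 0.18, adjusted p = 0.656). Npm1 changed by 0.59, 0.23 and 0.47 against 0.27, −0.10, 0.06 and 0.21 (0.32 ± 0.14, adjusted p = 0.657). With 56 libraries in place of clone sums, 20 members were called, all with the larger rise in group 1 (background in that direction 15.6%), but libraries of a clone are not independent clones.

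Myc rose in coculture over the 8 lines by 0.84 ± 0.10 on the log2 scale (adjusted p = 0.000709). Its means ran from 169 ± 31.9 CPM (SD, n = 4) in clone M to 427 ± 91.2 CPM in KPC1 in mono-culture, and from 275 ± 72.5 CPM in M to 723 ± 142 CPM in KPC1 in coculture. It was called higher in every line but K (0.33 ± 0.18, adjusted p = 0.227). Across the 8 lines the members' score and log2 Myc had a Pearson r of 0.97 and a Spearman rho of 0.95 in mono-culture, and r was 0.94 without M and KPC1, the lines farthest from the median in Myc. In coculture r was 0.95 and rho 0.71, but r was 0.46 without K and M. The changes had r of 0.80 and rho of 0.83, and r was 0.77 without K and T. These are descriptions over 8 lines whose values come from shared libraries.

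**Figure D5:**
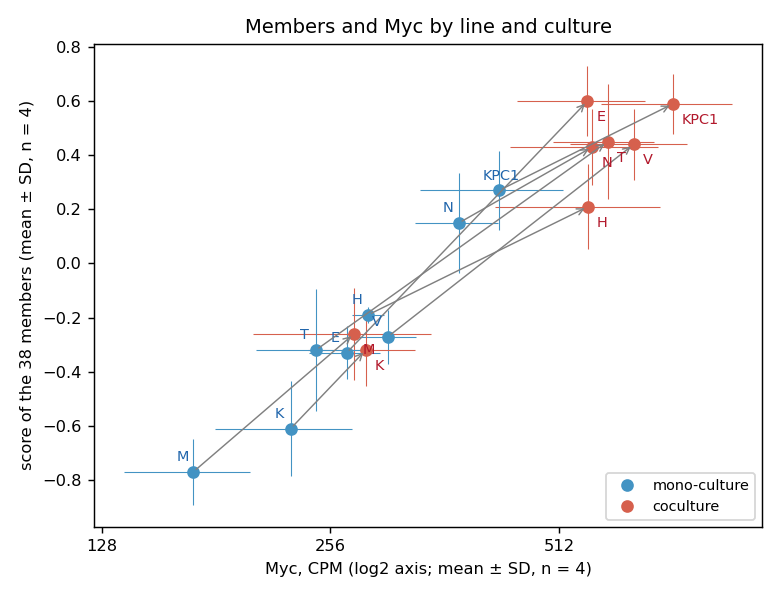
Score of the 38 members (y axis) against Myc in CPM (x axis, log2 scale), means of 4 libraries ± SD, with arrows from mono-culture (blue) to coculture (red) of each line. Lines with more Myc had higher scores in mono-culture (r = 0.97 over 8 lines), and each arrow points up and to the right.

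Proliferation genes moved with the members but in another order of lines. Of 24 such genes 23 were called higher over 8 lines, with a median log2 fold change of 0.82. Their median change was largest in clone K, at 1.85, where the members' was 0.27, and it was 0.67 in clone E, where the members' was 0.99. Levels of the proliferation score and the members' score had r of 0.80 and rho of 0.76 in mono-culture and 0.92 and 0.83 in coculture, and r was 0.70 and 0.71 without K and M. The r between the changes of the proliferation score and of the members' score over 8 lines was 0.08 (rho 0.29), and 0.59 without K and KPC1. Their part in the members' changes was not tested.

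Fibroblast markers were higher in the sorted coculture cells. Of 20 markers 18 were tested, of which 15 were called higher and 0 lower, and Col5a1, Fbln2 and Fn1 were not called. Lum and Mfap5 were not tested, and their line means in coculture reached only 0.242 and 0.0537 CPM. Summed over the 20, the markers were at 1730 to 13400 CPM in mono-culture libraries and 2720 to 13700 CPM in coculture libraries. Fn1 alone had line means of 954 to 9780 CPM in mono-culture. Thy1 and Lum were at 0 in all mono-culture libraries. Dcn, Fap, Postn and Thy1 are 4 markers of the 20 and were near 0 in mono-culture. Together they were at 0 to 0.201 CPM in mono-culture and 14.6 to 155 CPM in coculture. The mean of these 4 markers in coculture was, from high to low, 97.4 CPM in N, 90.9 in K, 83.5 in T, 72.0 in M, 66.8 in H, 60.8 in KPC1, 60.6 in E and 56.6 in V. Over 8 lines r with the change of score was −0.46 (rho −0.62), and 0.08 without K and N. Of 5 immune or endothelial markers in the table, Ptprc, Cd3e and Cdh5 were at or near 0, Cd68 was called higher (log2 fold change 1.37, adjusted p = 0.0108) and Pecam1 lower (−1.08, adjusted p = 0.0389). The part of carried-over RNA in the members' changes was not tested.

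As a feature of gene structure that the list did not use, 8 of 38 members (21.1%) host snoRNA genes within them on the same strand, 23 snoRNA genes in all in GENCODE M21, against 1.88% of 12403 protein-coding genes tested. Hosts include Nop56 (chromosome 2 of GRCm38, 130274430 to 130279313), with 5 snoRNA genes such as Snord57 and Snord110, Nop58 (chromosome 1, 59684971 to 59719044), with 4, Ncl (chromosome 1, 86344719 to 86359400), with 3, and Gnl3 (chromosome 14, 31012433 to 31019152), with 3. Exons of 16 members overlap a gene on the other strand, among them Nop56 with Idh3b, Rrp9 with Parp3 and Gnl3 with Pbrm1, and it is not stated whether counting used the strand. For 6 members over 5% of stretches of 76 bases occur in another annotated gene: Ddx18 (43.8%), Npm1 (17.8%), Fbl (16.9%), Nop56 (14.3%), Pes1 (9.97%) and Mrto4 (5.78%). How reads shared with such copies were counted is not given in the sources used here, and these values are uncertain.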

How the data were processed

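Poly(A) RNA-seq of 64 libraries (8 lines, mono-culture and coculture, 4 libraries each) was used. The authors deposited 1 table of raw read counts per gene, and a table of RPKM, which the authors scaled by gene length and library size. The submitters' processing notes list featureCounts and edgeR. The aligner, and whether counting used the strand, are not given in the sources used here. No source says that the libraries of a group are separate cultures. The p-values of tests over 64 libraries therefore measure the spread between libraries, which may be technical. Those of tests over sums of libraries measure the spread between lines or clones. Totals ran from 11178721 to 21333683 counts (median 15648009). No 2 libraries of a group agreed within sampling noise (96 pairs, chi-square per gene 4.46 to 65.5).

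Counts were filtered with filterByExpr, TMM normalized and tested with edgeR 4.0.16 in R 4.3.3 (quasi-likelihood F-test, Benjamini-Hochberg over all genes tested, adjusted p under 0.1, the threshold of the study). Coculture over 8 lines used 16 sums of libraries with the line as covariate. Groups were compared over 7 clone sums in mono-culture, and the group by culture interaction over 14. KPC1 has no group and was left out of both. Single lines and the line by culture interaction used 64 libraries in 16 groups. Alternatives were DESeq2 1.42.0, limma 3.58.1 on log2(RPKM + 1), other filters and thresholds, libraries as replicates, sample sheets and libraries left out. Scripts were tested on simulated data. Gene positions and snoRNA genes came from GENCODE M21 (GRCm38), promoters from RefSeq on GRCm38.p6.

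The 38 members and the other gene lists were chosen with earlier results of these data known. Named genes were the 6 largest and 6 smallest coculture changes, the 3 widest and 3 narrowest ranges between lines, the smallest p of the group, interaction and line by culture tests, and the largest changes of other factors. Part of the genotype of the mouse is not reported here.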

Additional observations from a re-analysis of the deposited data

Results flagged for a closer look

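Among 108 groups of libraries or lines tested for a value far from the others, 4 were flagged, and chance at 1 in 20 gives 5.4. In KPC1, the score of mono-culture replicate 4 was 0.05, while the others lay between 0.32 and 0.37. The score of KPC1 coculture replicate 2 was 0.76, and the others lay between 0.52 and 0.54. The same library had the lowest total, 11178721 counts, against 16016171 to 16755693 in the other coculture libraries of KPC1. Nop14 had a mean of 181 CPM in KPC1 in mono-culture, and the other 7 lines lay between 79.6 and 108 CPM.

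The response to coculture differed between the 8 lines in 35 members by the test of the line by culture interaction (edgeR, adjusted p under 0.1), against 71.3% of all genes tested.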

How the results depend on the processing

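The count of 36 members higher in coculture over 8 lines was 36 with DESeq2, with limma on RPKM and with a library number or a line left out. All calls together were 36 to 37 then, since Las1l was called lower without clone K, and 38 (37 higher, 1 lower) with 64 libraries as replicates. Of the values of single named members, 1054 kept their direction and side of the threshold, 19 passed it where they had not, and none reversed. In clone K the count was 8 with no filter on low counts, 9 at an adjusted p under 0.05 and 4 to 12 with a replicate left out. With a replicate left out it was 11 to 17 in clone N and 15 to 22 in KPC1, and it was 0 in KPC1 on sheet B alone, which leaves 1 coculture library, assumed to vary like the other groups. Sheet B alone and the 56 libraries without a block were alternatives chosen after seeing the data. For the settings of clones K and N and of KPC1 the share of all genes called is not given, so these counts are not read as a result about the members. The cause of the differences between settings was not tested.

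With libraries in place of clone sums, the group comparison called 5 members without a replicate block (31.8% of all genes called) and 5 with it (29.3%), and the interaction 20 without (30.4%) and 21 with it (27.8%). The labels hold a further number that is consecutive for the 2 cultures of each replicate, such as 1 and 2 for replicate 1 of clone E. No label says that either number marks a shared day. Not every pair of equal replicate number deviated together (17 of 32 had r over 0.1, lowest −0.0692), so the replicate numbers were not used as pairs. As a hint from the data, 24 of 32 correlated best, among the 4 coculture libraries of their line, with their own number. All 4 of clone N were among these 24. With the replicate block the line by culture interaction called 38 members (75.4% of all genes). Counts within lines, higher and lower together, are given with the share of all genes called. They were 37 in E (64.2%), 34 in H (48.9%), 37 in V (64.4%), 18 in K (25.9%), 31 in M (43.9%), 26 in N (42.6%), 34 in T (64.9%) and 30 in KPC1 (44.5%). With 3 and 4 clones in the groups, small differences between them could not be resolved.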
